A study of Mus musculus with 2 samples.

Results

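Classical monocytes were chosen in 2 droplet libraries of whole lung by the summed unique molecular identifiers (UMIs, each standing for 1 captured RNA molecule) of F13a1, Ccr2, Ms4a4c and Ly6c2. A cell was taken where these genes summed to at least 3 UMIs, with at least 2 of them detected. The summed UMIs of C1qa, C1qb and C1qc, of Treml4, Cd300e and Adgre4, and of 7 genes of other lineages (Cd79a, Cd3e, Cdh5, Epcam, Col1a2, Csf3r and Flt3) each had to be at most 1. The rule found 75 of 7988 cells in the library labelled CM and 161 of 7707 in that labelled TCM, or 236 of 15695 in all. Because the members were selected on these counts, the levels of the 4 genes are given as a description and not as a result.

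Both libraries came from lungs of female BALB/c mice aged 9 to 10 weeks that had received intravenous injections for 3 weeks. CM mice received control media, and TCM mice received media in which 4T1 primary mammary tumors had been cultured, so that neither group carried a tumor. TCM injection served to model the lung before metastasis. Each group was 1 library, the number of mice pooled into it was not stated, and the labels named no further allele or agent. Differences between mice therefore could not be measured, no p-value was computed, and every interval below is a 95% interval that covers counting error only.

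Classical monocytes leave the bone marrow through the chemokine receptor Ccr2, circulate in blood and enter inflamed tissue, where they can give rise to macrophages or to antigen-presenting cells. They carry the surface protein Ly6C and the coagulation transglutaminase F13a1. Non-classical monocytes, which patrol vessel walls and carry Cx3cr1 and Ace, develop from them. In the lung, monocytes recruited by tumor-derived factors are known as one of the cell types of the pre-metastatic niche.

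The libraries were similar in depth. They held 31944151 UMIs in CM and 36648719 in TCM, with a median of 2085 and 2346 UMIs per cell. The chosen monocytes were deeper than the average cell, at medians of 5117 UMIs in CM and 5227 in TCM. Of all barcodes, 93 passed the filters in both libraries, and these included 0 of the CM and 3 of the TCM monocytes. Neutrophils were 2.89% of cells in CM and 18.6% in TCM. RNA outside cells, estimated from erythroid and club cell genes in lymphocytes, came to 148 UMIs a cell in CM and 278 in TCM with a profile from droplets of at most 50 UMIs, and to 98.6 and 141 with one from droplets of 51 to 200 UMIs.

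The label held for most but not all of the chosen cells. Lyz2, the lysozyme gene of monocytes and macrophages, was detected in 60 of 75 CM members and in 159 of 161 TCM members. A count of 10 or more Lyz2 UMIs was reached by 50 of 75 CM and 151 of 161 TCM members. F13a1 was detected in 45 CM and 143 TCM members. The rule used F13a1 and Ccr2 to choose the cells, so their counts here are descriptive and do not check the label. Among CM members, 28 (37.3%, interval 26.4 to 49.3%) carried 3 or more UMIs of a dendritic cell list or a natural killer cell list, against 17 (10.6%, 6.27 to 16.4%) in TCM. The median Lyz2 count of those 28 CM cells was 0.5 UMIs, 6 of them had F13a1, and 26 had Ccr2. The 17 TCM cells had a median of 23 Lyz2 UMIs, 16 of them had Lyz2 and 10 had F13a1.

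The cells with 3 or more UMIs of a list were mixed. Siglech, a receptor of plasmacytoid dendritic cells, had 3 or more UMIs in 11 CM and 3 TCM members. The natural killer cell list reached 3 UMIs in 8 CM and 5 TCM members. The CM member with the most UMIs, 21257, held 69 UMIs of that list, 432 of Lyz2 and 88 of the marker genes used by the rule. Others had few UMIs of a list beside many of monocyte genes. A CM member with 217 Lyz2 UMIs and 29 of the rule's markers held 3 UMIs of the natural killer cell list, and a TCM member with 284 Lyz2 UMIs held 7 of the dendritic cell list. Ly6c2 and Ccr2 are known to be shared by plasmacytoid dendritic cells and natural killer cells, and the rule did not bar either lineage.

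The comparison was therefore also made without these cells, some of which carried monocyte genes at a high count. The remaining 47 CM and 144 TCM cells, called filtered monocytes here, had fewer than 3 UMIs of each list. This threshold was set after the data had been seen. In them Lyz2 was detected in 46 of 47 and 143 of 144 cells, at a median of 136 and 152 UMIs. Ms4a6c, a further marker of the class that the rule did not use, stood at 153 and 159 UMIs per 100000 UMIs. Of the genes that chose the cells, F13a1 was at 89.5 and 145 in filtered monocytes, Ccr2 at 50.3 and 100.5, Ms4a4c at 45.0 and 57.9 and Ly6c2 at 113 and 127. The dendritic cell list summed to 5.87 UMIs per 100000 in CM and 4.34 in TCM, with 5 and 4 of its 10 genes at 0. The natural killer cell list summed to 2.44 and 2.32, with 5 and 2 of its 8 genes at 0. Gene values below are for filtered monocytes unless all members are named.

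**Figure D1:**
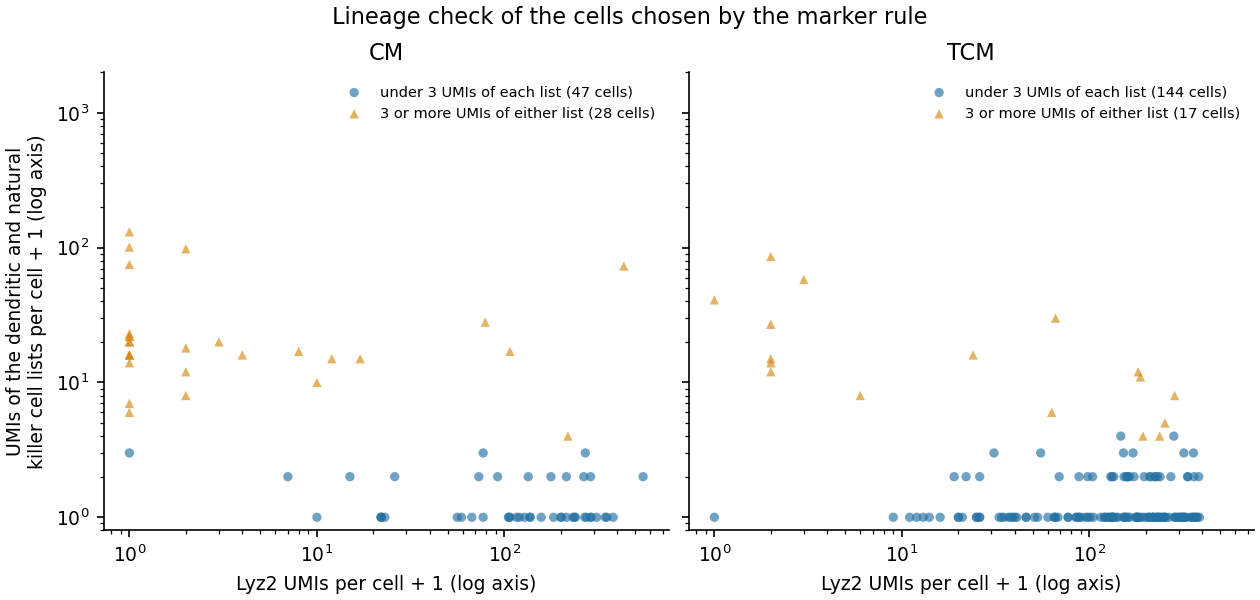
Each point is 1 cell chosen by the marker rule, with its Lyz2 UMIs plus 1 on the horizontal axis and its summed UMIs of the dendritic and natural killer cell lists plus 1 on the vertical axis, both logarithmic, in CM (left) and TCM (right). Triangles mark the 28 CM and 17 TCM cells with 3 or more UMIs of either list, and most of the CM triangles lie at the low end of the Lyz2 axis, while the circles of the filtered monocytes mostly lie far to the right.

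The first comparison asked whether classical monocytes made up a different part of the lung cells after TCM. They were 0.939% of the CM cells (interval 0.739 to 1.18%) and 2.09% of the TCM cells (1.78 to 2.43%), a ratio of 2.22 (1.68 to 2.97). Filtered monocytes were 0.588% (0.433 to 0.782%) and 1.87% (1.58 to 2.20%), a ratio of 3.18 (2.27 to 4.51). Among cells with a UMI of Ptprc, the pan-leukocyte gene, all members were 2.86% of CM and 4.47% of TCM cells, and the ratio was 1.56 (1.16 to 2.12). For filtered monocytes the same ratio was 2.30 (1.60 to 3.37). With neutrophils left out of the total, filtered monocytes were 0.606% and 2.30% of cells. No spread between mice stands beside these shares.

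The share depended on depth and on the threshold. After each cell had been thinned to 1000 UMIs, the rule found 32 CM and 135 TCM cells, and the ratio was 4.04. Just under the threshold, at 2 summed marker UMIs, 28 cells stood in CM and 13 in TCM, and their median Lyz2 counts were 1 and 2 UMIs. Just above it, at 3, stood 11 and 7 cells, whose medians were 6 and 19. At both counts the CM library held more cells than the TCM library.

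Other mononuclear phagocytes did not show the same ratio of shares. Non-classical monocytes, chosen by Treml4, Cd300e and Adgre4, numbered 35 in CM (0.438%, interval 0.305 to 0.609%) and 17 in TCM (0.221%, 0.129 to 0.353%). Macrophages chosen by the complement genes C1qa, C1qb and C1qc were 102 cells (1.28%) and 115 cells (1.49%), a ratio of 1.17 (0.887 to 1.54).

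**Figure D2:**
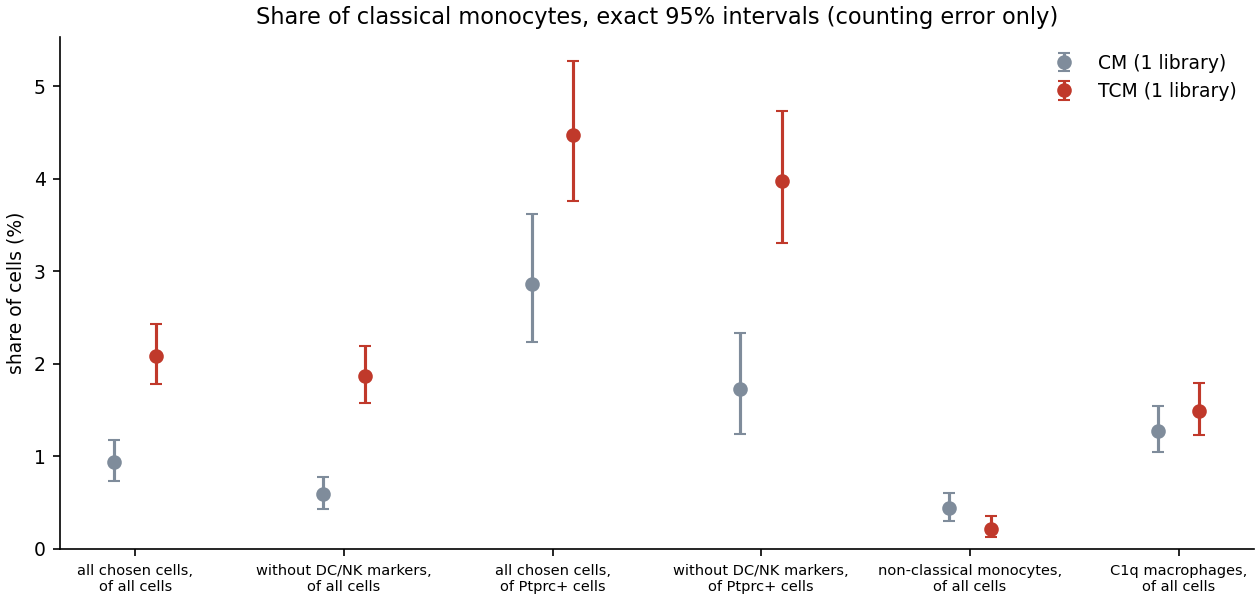
Points are shares of cells in percent in CM (grey) and TCM (red), with exact Clopper-Pearson 95% intervals for counting error, for all chosen cells, for filtered monocytes, for non-classical monocytes and for C1q macrophages. The TCM point lies above the CM point in all 4 comparisons of classical monocytes, from 0.939% against 2.09% to 1.73% against 3.97%, and below it for non-classical monocytes.

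Genes were then compared inside the class. UMIs were summed over the monocytes of a library and given as UMIs per 100000 UMIs, and a gene was called where TCM and CM differed at least 2-fold with an interval on 1 side of 0. Of 5923 genes with at least 20 UMIs over all members, 288 were called higher in TCM, which is 4.86% of the genes compared, and 339 lower, which is 5.72%. In filtered monocytes 210 of 4931 genes were called higher (4.26%) and 122 lower (2.47%). Of those 210 higher genes, 88 were in 10 or more TCM cells at 3 times or more the level in TCM lymphocytes. Of the 122 lower genes, 27 met the same limits in CM. The median log2 ratio was -0.01 over all members and 0.05 in filtered monocytes. Both sets shared 138 of the genes called higher, which is 138 of 288 and 138 of 210, and 61 of the genes called lower. AW112010 was called in opposite directions, with a log2 ratio of -1.52 over all members and 3.10 in filtered monocytes, and it is named here because it was the 1 exception.

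The naming rule led to Lbp and Saa3 among the genes called higher in TCM in both sets. Lbp, which encodes the lipopolysaccharide-binding protein that hands bacterial lipid to Cd14, had 0 UMIs in CM and 63 UMIs in 37 cells in TCM. With the CM sum of 0 set to 3 counts, this was 10.4-fold higher over all members and 6.22-fold higher in filtered monocytes. The lower ends of the log2 intervals were 3.04 and 2.30. Saa3, a serum amyloid A gene induced by inflammation, had 0 UMIs in CM and 50 UMIs in 14 cells in TCM. With the same setting this was 8.26-fold higher over all members and 4.94-fold higher in filtered monocytes. The lower ends of its log2 intervals were 2.69 and 1.95. The 3 richest cells held 48.0% of the Saa3 UMIs. Without the 4% of cells richest in Saa3, its log2 bound in filtered monocytes went from 2.30 to 0.24, under the 2-fold limit. Without the 4% of cells richest in Lbp, the Lbp bound there went from 2.64 to 1.98. The Lbp call did not hold with thinned cells, which leave fewer counts per gene. Its log2 bound was then 0.13 in filtered monocytes and 0.96 over all members, both under the 2-fold limit. All 14 TCM cells with Saa3 had Thbs1, and also F13a1 and Ccr2, which the rule used to choose cells. Their median Lyz2 count was 215 UMIs. Lymphocytes had no Saa3 UMI in either library.

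Further genes named by the rule for secreted proteins were Hp, Slpi, C1rl and Igfbp6. Hp, which encodes the hemoglobin scavenger haptoglobin, was at 68.0 UMIs per 100000 in CM and 179 in TCM in filtered monocytes (log2 ratio 1.40, interval 1.15 to 1.66). Slpi, an inhibitor of neutrophil elastase, rose from 9.29 to 43.0 (2.21, 1.54 to 2.96). C1rl, a protease related to complement C1r, had 1 UMI in CM against 45 in TCM (3.74, with a wide interval of 1.19 to 9.07). Without the richest 4% of cells its log2 value was 1.47. Igfbp6, a binding protein of insulin-like growth factors, had 0 and 37 UMIs, 3.65-fold higher with the CM sum of 0 set to 3 counts. The 3 richest cells held 45.9% of the Igfbp6 UMIs, and without the richest 4% of cells its log2 value went from 1.87 to 0.47, below the 2-fold limit. Over all members the log2 ratios were 1.88 for Hp, 1.59 for Slpi, 2.93 for C1rl and 2.61 for Igfbp6. Lymphocytes of the same libraries stood at 3.04 and 7.82 for Hp and at 2.59 and 2.17 for Slpi. Neutrophils held Hp at 163 and 328 (1.01, 0.89 to 1.13).

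Further genes called higher in both sets included receptors. Clec4e, the C-type lectin Mincle that senses mycobacterial glycolipid and dead cells, had 16 UMIs in 8 of 47 filtered CM monocytes and 263 UMIs in 84 of 144 in TCM. Its levels were 7.82 and 38.1 UMIs per 100000, a log2 ratio of 2.28 (1.56 to 3.11), and over all members the ratio was 2.68 (2.05 to 3.38). Ccr1, a receptor for inflammatory CC chemokines, was at 9.29 and 36.6 (1.98, 1.31 to 2.74), and at 2.47 on the log2 scale over all members. Tarm1, an activating receptor of the leukocyte receptor complex, had 0 and 32 UMIs. Also called higher in both sets were Plcb1, a phospholipase C, Xdh, the xanthine dehydrogenase of purine breakdown, and Osm, which encodes the cytokine oncostatin M, with log2 ratios of 1.54, 1.66 and 1.30 in filtered monocytes and of 2.25, 2.10 and 1.99 over all members. The Xdh call did not hold at equal depth. With cells thinned to 1000 UMIs its log2 ratio in filtered monocytes was 0.34, and the share of cells with it was 20.9% in TCM and lower by under 1 percentage point in CM. Osm was at 0.93 without the richest 4% of cells, under the 2-fold limit. With cells thinned to 1000 UMIs, Clec4e was seen in 7.50% of CM and 30.6% of TCM filtered monocytes, and in 0.293% and 1.44% of lymphocytes.

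Neutrophils carried Clec4e and Ccr1 at a higher level than monocytes. Clec4e stood at 92.7 and 104 UMIs per 100000 in neutrophils, and Ccr1 at 56.6 and 89.6. S100a9, the most abundant of the neutrophil genes listed here, was at 8544 in TCM neutrophils and at 29.4 in filtered TCM monocytes. With the estimated free RNA subtracted, the log2 ratio of Clec4e was 2.29.

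Promoter sequences of Saa3 and Clec4e are shown because these genes were higher in TCM in both sets and their promoters hold a letter pattern of the C/EBP family, transcription factors of myeloid cells and of the acute-phase response. The stretches come from RefSeq on build GRCm38.p6, read 5′ to 3′ on the strand of the gene. Capitals mark the match to TTGCNNAA, which lies on the opposite strand in both. The Saa3 stretch is at chr7:46715742-46715801 on the minus strand, and the match starts 99 bases before the transcription start. The Clec4e stretch is at chr6:123289904-123289963 on the minus strand, and its match starts 66 bases before the start.
Saa3: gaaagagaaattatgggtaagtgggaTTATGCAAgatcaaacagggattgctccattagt
Clec4e: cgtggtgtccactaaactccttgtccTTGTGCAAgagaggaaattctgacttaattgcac
Over the 250 bases before the start, on both strands, the pattern was found in 12 of 106 genes called higher in both sets that had a promoter in the table (11.3%), in 5 of 54 called lower (9.26%) and in 10.8% of all 27025 genes. The match is a description of these letters, and its share among the higher genes was close to that of all genes.

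Coagulation and matrix genes were the list with the most genes called higher in filtered monocytes. Of 20 listed genes, 12 were compared, and in filtered monocytes 6 were higher in TCM and 0 lower, against 4.26% and 2.47% of all genes, with a median log2 ratio of 0.95 against 0.05 over all genes. Over all members 8 of 12 were higher, against 4.86% of all genes, with a median of 1.56. F13a1, which was used to choose the cells, was one of these 8.

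Thbs1, which encodes the matrix and platelet protein thrombospondin 1, had the most UMIs of the called genes in this list. It was at 82.1 UMIs per 100000 in CM and 192 in TCM in filtered monocytes (log2 ratio 1.23, interval 0.99 to 1.47). Single cells held 0 to 26 UMIs in CM and 0 to 72 in TCM, with medians of 0 and 5, so that the 2 libraries overlapped. Vcan, the proteoglycan versican, was at 6.35 and 21.1 (1.73, 0.92 to 2.68). F10, coagulation factor X, was at 4.40 and 21.0 (2.25, 1.29 to 3.41). F5, coagulation factor V, was at 5.38 and 11.01 (1.03, 0.11 to 2.10). Over all members the log2 ratios were 1.98 for Thbs1, 2.53 for Vcan, 1.92 for F10 and 1.57 for F5.

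The remaining called genes of the list were matrix metalloproteinases. Mmp8, the neutrophil collagenase, was at 7.33 and 21.6 (1.56, 0.79 to 2.43). Mmp19 was at 2.93 and 8.69 (1.57, 0.36 to 3.07), and at 0.48 on the log2 scale with thinned cells. Over all members Mmp8 was at 1.92 and Mmp19 at 2.05. Fn1, the fibronectin gene, was at 106 and 194 with a log2 ratio of 0.88 (0.67 to 1.09) in filtered monocytes, and it passed the 2-fold limit over all members only, at 1.55. Lymphocytes summed to 21.5 and 23.5 for the whole list, against 431 and 740 in filtered monocytes.

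The opposite direction was led by MHC class II genes, which encode the proteins that present antigen to CD4 T cells. In filtered monocytes 4 of 5 compared genes were lower in TCM, against 2.47% of all genes, and the median log2 ratio was -2.42. Over all members 5 of 6 were lower, against 5.72%. H2-Aa, the alpha chain of I-A, was at 158 UMIs per 100000 in CM and 22.3 in TCM (-2.82, -3.11 to -2.54). H2-Ab1, its beta chain, was at 96.8 and 18.1 (-2.42, -2.75 to -2.09). H2-Eb1, the beta chain of I-E, was at 63.1 and 7.39 (-3.09, -3.59 to -2.62). Cd74, the invariant chain that occupies the class II groove, was at 523 and 102 (-2.36, -2.50 to -2.22). Over all members the log2 ratios of these 4 genes were -2.33, -1.95, -2.29 and -2.09.

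A list of dendritic cell-like monocyte genes holds the same 4 genes and had 6 of 8 lower in filtered monocytes, against 2.47% of all genes. Its other called genes were Batf3, a transcription factor of dendritic cells (-1.34, -2.51 to -0.13), and Cbfa2t3 (-1.03, -1.96 to -0.07).

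The class II difference lay in a minority of the cells. Of 47 filtered CM monocytes, 14 (29.8%, interval 17.3 to 44.9%) had 5 or more UMIs of H2-Aa, H2-Ab1 and H2-Eb1, against 10 of 144 (6.94%, 3.38 to 12.4%) in TCM. Those 14 cells held 633 of the class II UMIs, and the other 33 CM cells held 17. In TCM the 10 cells held 297 and the other 134 held 33. The 14 CM cells had a median of 78.5 Lyz2 UMIs, and 8 of them had F13a1. The other 33 CM cells had a higher median of 182 Lyz2 UMIs, and 31 of them had F13a1. The 10 TCM cells had a median of 191 Lyz2 UMIs, and 8 of them had F13a1. The other 134 TCM cells had a median of 151.5 Lyz2 UMIs, and 125 of them had F13a1. The rule used F13a1 to choose the cells, so its counts do not check the label. A single cell reached 239 class II UMIs in CM and 136 in TCM. With the 4% of cells richest in each gene left out, the log2 ratio of H2-Aa was -3.67 and that of Cd74 -3.09. That percent can take a larger part of the 10 TCM cells than of the 14 CM cells. These values therefore do not check the difference.

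Class II RNA is abundant in other lung cells. Lymphocytes, which include B cells, held H2-Aa at 351 and 310 UMIs per 100000, more than the monocytes of either library. C1q macrophages held 1262 and 1174. In free RNA H2-Aa was at 82.5 and 80.0. Whether dendritic cells below the limit of the list took part in the CM value was not tested.

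The promoters of H2-Aa and H2-Eb1 hold the letters of the Y box, the motif bound by the factor NF-Y in class II promoters, and they are shown for that reason. Capitals mark CTGATTGG on the strand of the gene. The H2-Aa stretch is at chr17:34287841-34287900 on the minus strand of GRCm38.p6 and the motif starts 51 bases before the transcription start. The H2-Eb1 stretch is at chr17:34305779-34305838 on the plus strand and the motif starts 62 bases before the start.
H2-Aa: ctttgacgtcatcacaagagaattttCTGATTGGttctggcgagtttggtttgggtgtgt
H2-Eb1: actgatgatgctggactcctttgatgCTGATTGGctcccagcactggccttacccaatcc
The same letters, on either strand of the 250 bases before the start, were found in 4.43% of all genes, in 2 of 54 genes called lower in both sets (3.70%) and in 10 of 106 called higher (9.43%). H2-Aa and H2-Eb1 were the 2 lower genes that held it.

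**Figure D3:**
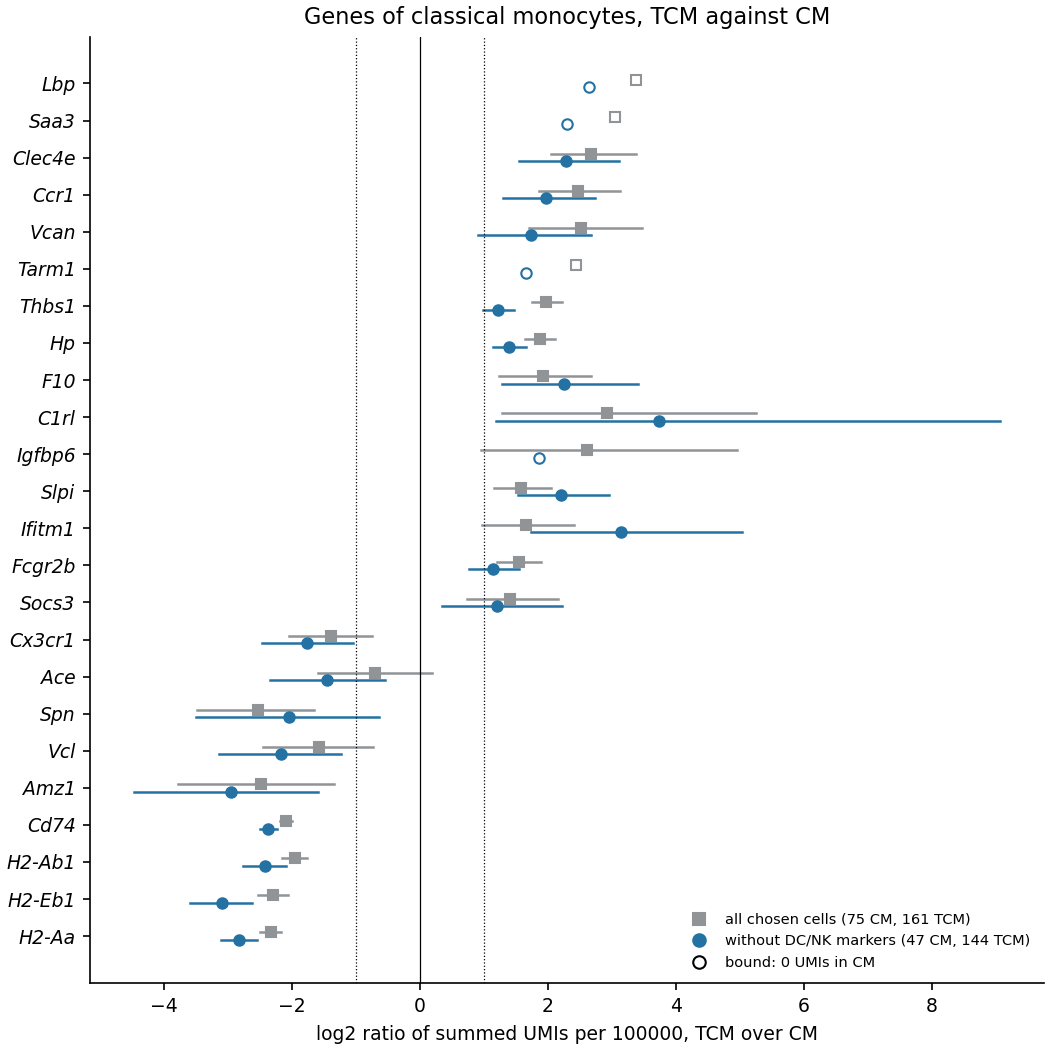
The horizontal axis is the log2 ratio of summed UMIs per 100000, TCM over CM, with 95% counting intervals, for 24 genes in all chosen cells (grey squares) and in filtered monocytes (blue circles). Open symbols are bounds from a CM sum of 0, dotted lines mark a 2-fold change, and the genes from Lbp to Socs3 lie to the right while those from Cx3cr1 to H2-Aa lie to the left in both sets.

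Part of the genes of non-classical monocytes were lower. In filtered monocytes 3 of 7 compared genes were lower in TCM, against 2.47% of all genes, and 0 higher, with a median log2 ratio of -0.61. Over all members 2 of 8 were lower, against 5.72%. Cx3cr1, the fractalkine receptor, was at 17.6 UMIs per 100000 in CM and 5.21 in TCM (-1.76, -2.46 to -1.05). It was detected in 19 of 47 and 25 of 144 cells, and its log2 ratio over all members was -1.39. Ace, the angiotensin-converting enzyme, was at 10.3 and 3.77 (-1.45, -2.33 to -0.55), and it was not called over all members (-0.70, -1.59 to 0.20) and fell short of the 2-fold limit with thinned cells (-0.74). Spn, which encodes CD43, was at 5.38 and 1.30 (-2.04, -3.49 to -0.64), and over all members its log2 ratio was -2.53. Nr4a1, the nuclear receptor on which non-classical monocytes depend, was at 59.2 and 38.7 (-0.61, -0.93 to -0.29) and was not called. The rule barred cells with more than 1 UMI of Treml4, Cd300e and Adgre4, so those 3 genes were not read. Cells with at most 1 such UMI passed. Non-classical monocytes chosen by the same genes numbered 35 in CM and 17 in TCM, beside 47 and 144 filtered monocytes. Whether non-classical monocytes below that limit took part in the CM values was not tested.

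Further genes called lower by the naming rule in filtered monocytes had low counts. Vcl, the adhesion protein vinculin, had 24 UMIs in CM and 18 in TCM (log2 ratio -2.17, -3.14 to -1.23). Amz1 had 16 and 7 UMIs (-2.95, -4.47 to -1.59). Cd300a, an inhibitory receptor of myeloid cells, had 93 and 153 UMIs, or 45.5 and 22.2 per 100000 (-1.04, -1.42 to -0.65). Cyb5r1, Fmnl1, Htra2, Camkk2, Nfic and Bach1 had log2 ratios from -1.83 to -1.03, and of these 6 genes only Cyb5r1, Htra2 and Nfic were also called over all members. With thinned cells Nfic was at -0.37, Bach1 at -0.38 and Camkk2 at 0.72 in filtered monocytes. Over all members Vcl was at -1.57, Amz1 at -2.49 and Cd300a at -0.60.

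Of a list of neutrophil-like monocyte genes, 5 of 8 compared were called higher in filtered monocytes, against 4.26% of all genes, and 0 lower. Their median was 1.36. Over all members 5 of 9 were higher and 1 lower, against 4.86% and 5.72%. S100a8 and S100a9, described next, were 2 of the 5 and are not read as expression by monocytes. The counts and the median include both of them. Prtn3, a serine protease of granulocyte precursors, had 3 UMIs in 3 CM cells and 77 UMIs in 50 TCM cells (2.93, 1.33 to 5.24), and with thinned cells its log2 ratio was 0.67. Over all members Prtn3 was at 8.99 and 10.8 and was not called, where its 35 CM UMIs came from 4 cells. Lymphocytes had no Prtn3 UMI in either library, and neutrophils held it at 0.542 and 0.306.

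S100a8 and S100a9, the alarmins of neutrophils, were at a higher level in TCM in the other classes as well. In non-classical monocytes S100a8 had only 7 and 9 UMIs (log2 ratio 1.48, -0.12 to 3.13), and in neutrophils the log2 ratios were 0.65 and 0.46. In filtered monocytes S100a9 was at 0.978 and 29.4 UMIs per 100000 and S100a8 at 6.35 and 42.7. A few cells carried much of this. Of the TCM UMIs of filtered monocytes, 3 cells held 51.2% for S100a8, with up to 65 in 1 cell, and 48.3% for S100a9, with up to 81. Of 144 TCM cells 8 had 5 or more UMIs of both genes together, against 1 of 47 in CM. Lymphocytes held S100a9 at 8.78 and 114 and S100a8 at 3.63 and 74.0, and droplets of at most 50 UMIs held S100a9 at 96.0 and 437. The level over the filtered monocytes was below that in lymphocytes of TCM for both genes, and it is not read as expression by monocytes. Lrg1, with 0 UMIs in CM and 65 in TCM, stood at 573 UMIs per 100000 in TCM neutrophils and at 5.88 in TCM lymphocytes.

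Lung epithelial genes moved in both directions outside the monocytes. The epithelial list summed to 219 and 426 UMIs per 100000 in filtered monocytes and to 552 and 875 in lymphocytes, but to 7866 and 6088 in free RNA. Sftpc, the surfactant protein C gene of alveolar type II cells, was at 32.3 and 86.2 UMIs per 100000 in filtered monocytes and at 151 and 356 in lymphocytes. Ager, a gene of alveolar type I cells, was called higher, but 161 of its 192 TCM UMIs were in 1 cell, and without the richest 4% of cells its log2 ratio was -0.34. Lymphocytes held Ager at 21.1 and 12.2. Aqp5 and Cldn18, also epithelial genes, were called higher in both sets, with log2 ratios of 3.57 and 2.97 in filtered monocytes. Hopx was at 0.86 there and was not called. Of filtered monocytes, 7 of 47 in CM (14.9%) and 28 of 144 in TCM (19.4%) had 5 or more UMIs of Ager, Hopx and Aqp5. Whether the monocytes expressed these genes was not tested.

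**Figure D4:**
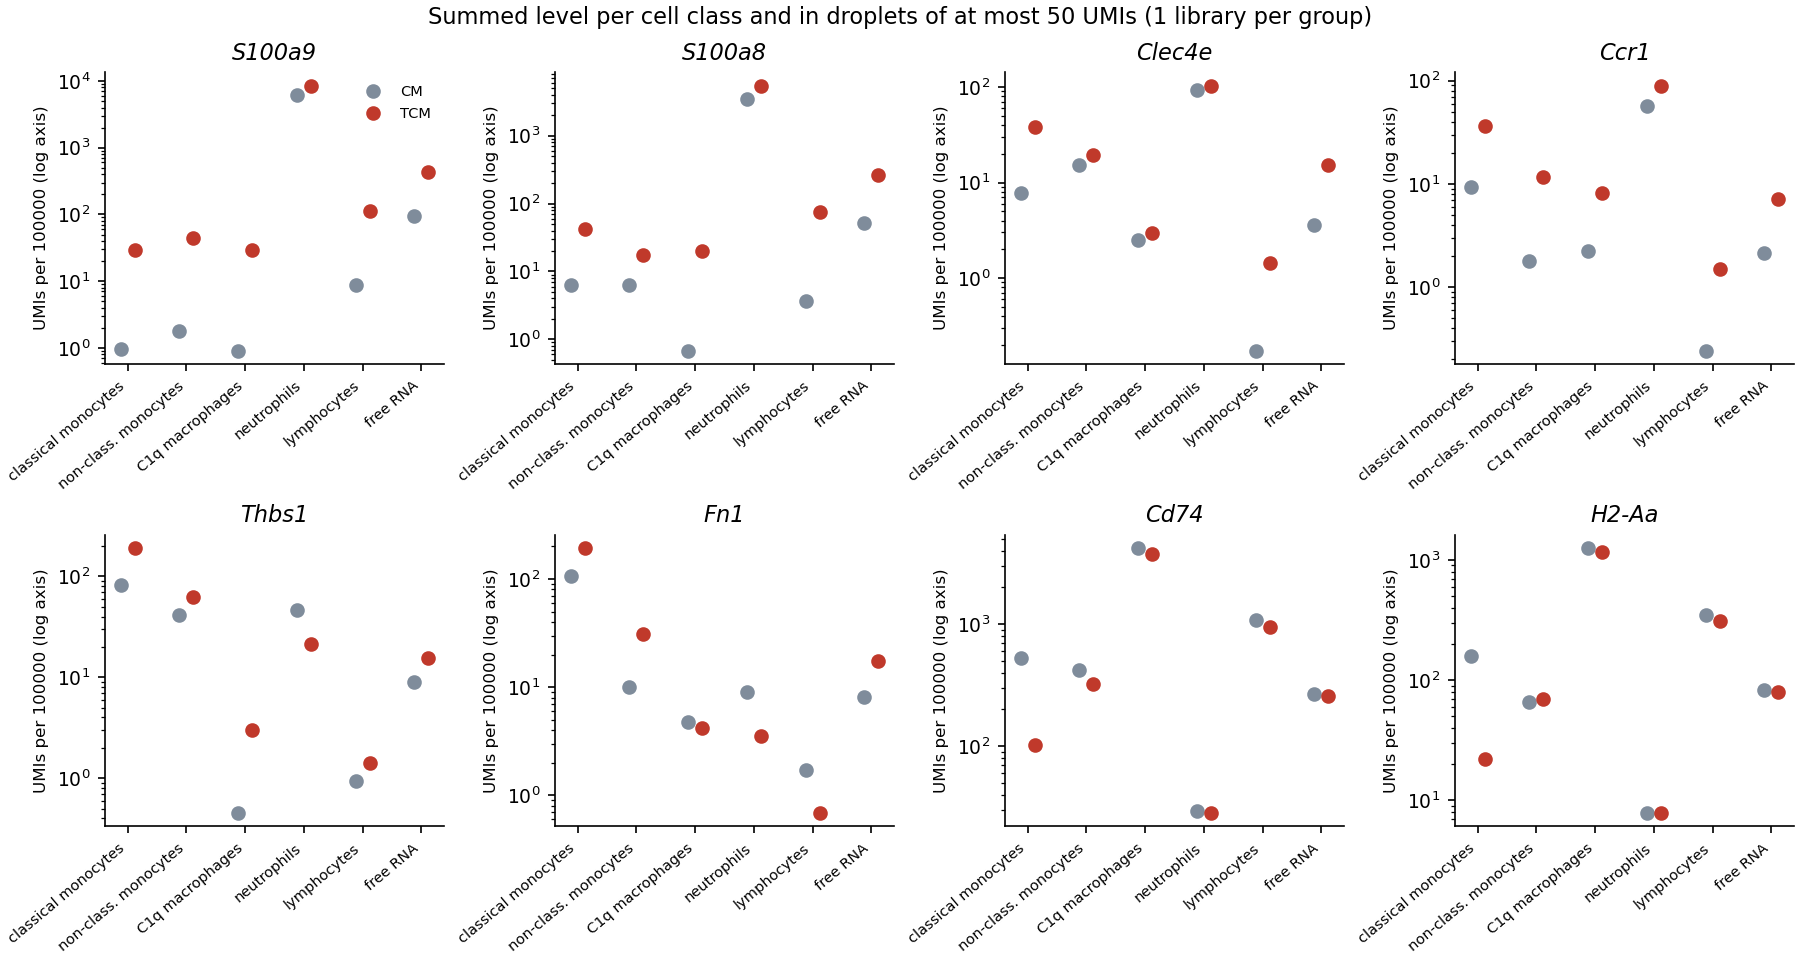
Each panel plots, for 1 gene on a logarithmic axis, the UMIs per 100000 in filtered classical monocytes, non-classical monocytes, C1q macrophages, neutrophils, lymphocytes and droplets of at most 50 UMIs, in CM (grey) and TCM (red), with 1 library per group. S100a8 and S100a9 are higher in TCM in all 6 columns, whereas H2-Aa differs widely in classical monocytes, from 158 to 22.3, and little in the other columns.

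The other classes were set beside the monocytes for the leading genes. In non-classical monocytes Clec4e was at 15.4 and 19.5 UMIs per 100000 (log2 ratio 0.35, -0.94 to 1.56), Ccr1 at 1.81 and 11.7 (2.70, 0.21 to 6.04) and Hp at 26.2 and 82.1 (1.65, 0.93 to 2.38). In neutrophils Thbs1 was lower in TCM, at 46.9 and 21.3 (-1.14, -1.39 to -0.88), while it was higher in classical monocytes. C1q macrophages held Thbs1 at 0.45 and 2.98, from only 2 and 15 UMIs (2.72, 0.62 to 5.89). Non-classical monocytes held it at 41.6 and 62.5 (0.59, -0.11 to 1.27). Ifitm1, an interferon-induced membrane protein, was at 1.96 and 17.2 in filtered monocytes (3.14, 1.75 to 5.04) and at 74.2 and 272 in neutrophils (1.88, 1.70 to 2.05). With only 35 and 17 non-classical monocytes, their intervals were wide.

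Some receptors and sensors of the fixed lists were called. Of 14 compared chemokine and growth factor receptors, Ccr1, Csf2rb and Fpr2 were higher and Cx3cr1 lower in filtered monocytes. Among all genes 4.26% were higher and 2.47% lower. Csf2rb, the common beta chain of the receptors for GM-CSF, interleukin 3 and interleukin 5, was at 14.7 and 31.6 UMIs per 100000 (1.11, 0.55 to 1.71). Fpr2, a formyl peptide receptor, had 2 and 31 UMIs (2.20), and was at 0.47 without the richest 4% of cells, under the limit. Over all members Csf2rb was at 1.22 and Fpr2 at 2.08. Csf1r, the receptor for M-CSF on which monocytes depend, was at 35.2 and 38.2 (0.12, -0.26 to 0.52).

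Of 14 Toll-like receptors and adaptors, 3 were higher and 1 lower in filtered monocytes, beside 4.26% and 2.47% of all genes. Over all members 6 of 16 were higher and 0 lower, beside 4.86% and 5.72%. Myd88, the common adaptor, was at 5.87 and 15.1 UMIs per 100000 (1.36, 0.50 to 2.36), and at 0.13 on the log2 scale with thinned cells. Tlr13, a sensor of bacterial ribosomal RNA, was at 4.89 and 11.4 (1.23, 0.27 to 2.34). Tlr8 had 2 and 29 UMIs (2.10, 0.12 to 5.22), and was at 0.83 without the richest 4% of cells. Tlr7, a sensor of single-stranded RNA, was at 5.87 and 2.46 (-1.25, -2.40 to -0.05). Over all members Myd88 was at 1.15, Tlr13 at 2.01, Tlr8 at 2.89 and Tlr7 at -0.76, the last not called. Tlr2, Tlr4 and Cd14 were called over all members only, and in filtered monocytes their log2 ratios were 0.47, 1.01 and 0.69.

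Of 6 Fc receptor genes, 1 was called higher in filtered monocytes and 4 over all members, beside 4.26% and 4.86% of all genes. Fcgr2b, the inhibitory receptor for immunoglobulin G, was at 30.8 and 68.1 UMIs per 100000 (1.14, 0.76 to 1.55), and over all members its log2 ratio was 1.55. Fcgr3 was at 30.8 and 55.2 (0.84, 0.45 to 1.25) and Fcgr1 at 10.8 and 19.99 (0.89, 0.24 to 1.61), and neither passed the 2-fold limit there.

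Of 19 genes of suppressive myeloid cells, 3 were called higher in filtered monocytes, where 4.26% of all genes were, and 9 over all members, where 4.86% were. The 3 were Clec4e, Ptgs2 and Socs3. Ptgs2, the prostaglandin synthase COX-2, had 2 UMIs in CM and 32 in TCM (2.24, 0.27 to 5.35). Its log2 ratio was 0.24 without the richest 4% of cells and 0.84 with thinned cells, both under the 2-fold limit. Socs3, a feedback inhibitor of cytokine signalling, was at 5.87 and 13.6 UMIs per 100000 (1.21, 0.34 to 2.22). Over all members Ptgs2 was at 2.40 and Socs3 at 1.42. Arg1, an arginase gene used to define suppressive cells, had 0 UMIs in CM and 1 in TCM. Arg2 was at 13.7 and 16.8 (0.30, -0.31 to 0.95), and was called over all members (1.01).

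Of the macrophage genes compared, 4 of 12 were called higher in filtered monocytes, beside 4.26% of all genes. Over all members 1 of 13 was called higher, beside 4.86%. Trem2, a lipid-sensing receptor, had 3 UMIs in CM and 58 in TCM (2.52, 0.90 to 4.84), with 0.13 in thinned cells and 2.31 over all members. The lysosomal proteases Ctsd and Ctsl were at 13.2 and 37.4 (1.501, 0.93 to 2.13) and at 17.6 and 47.2 (1.42, 0.92 to 1.96). Spp1, the osteopontin gene, had 3 and 35 UMIs, the latter in 8 cells. Over all members Ctsd was at 0.73, Ctsl at 0.18 and Spp1 at -0.01, and these 3 were not called. Msr1, the scavenger receptor for modified lipoprotein, was at 5.38 and 14.2 (1.40, 0.50 to 2.45). It was the 1 gene of 13 called in the list of fatty acid and lipid handling genes, beside 4.26% of all genes higher. Over all members 1 of 19 genes of that list was called higher and 5 lower, beside 4.86% and 5.72% of all genes. The rule limited C1qa, C1qb and C1qc, so these were not read.

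Single genes of stress and metabolism lists passed the limit. Hif1a, the oxygen-regulated transcription factor, was at 15.2 and 30.6 UMIs per 100000 (1.01, 0.46 to 1.60), and Pgam1, a glycolytic enzyme, at 16.6 and 37.7 (1.18, 0.66 to 1.74). They were 2 of 18 genes of the glycolysis and hypoxia list, beside 4.26% of all genes, and the list's median was 0.40. Over all members they were at 1.17 and 0.88, the latter not called. Mt1, a metallothionein, was at 5.87 and 22.5 in filtered monocytes (1.94, 1.09 to 2.92) and at 41.9 and 22.2 over all members. Among 7 chemokine ligands compared in filtered monocytes only Cxcl2, an attractant of neutrophils, was called, at 29.3 and 64.9 (1.15, 0.75 to 1.56), beside 26.3 and 67.0 in free RNA.

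For several lists the counts in filtered monocytes lay near the shares over all genes, 4.26% higher and 2.47% lower. Nothing is read from them. Of 25 type I interferon-stimulated genes, 0 were called higher and 1, Stat2, lower in filtered monocytes, with a median of -0.09. Ifi27l2a was at 337 and 317 UMIs per 100000 and Irf7 at 42.0 and 29.1. Of 13 MHC class I and immunoproteasome genes and of 17 immediate early genes, 0 were called in either direction in those cells. Il1b, the interleukin 1 beta gene, was at 104 and 71.1 (-0.55, -0.79 to -0.31). The markers of classical monocytes that the rule did not use were called higher more often than all genes. Of 18 compared, 3 were higher in filtered monocytes, Hp and Vcan among them, and 0 lower. Over all members 7 of 18 were higher, against 4.86% of all genes, and 0 lower. Lyz2 was at 3727 and 3388 in filtered monocytes (-0.14, -0.18 to -0.10). For the cell cycle list 11 of 13 genes were lower over all members, against 5.72% of all genes, and 0 of 4 in filtered monocytes. Ube2c, a mitotic ubiquitin ligase subunit, had 99 UMIs in 2 CM members, both set aside.

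**Figure D5:**
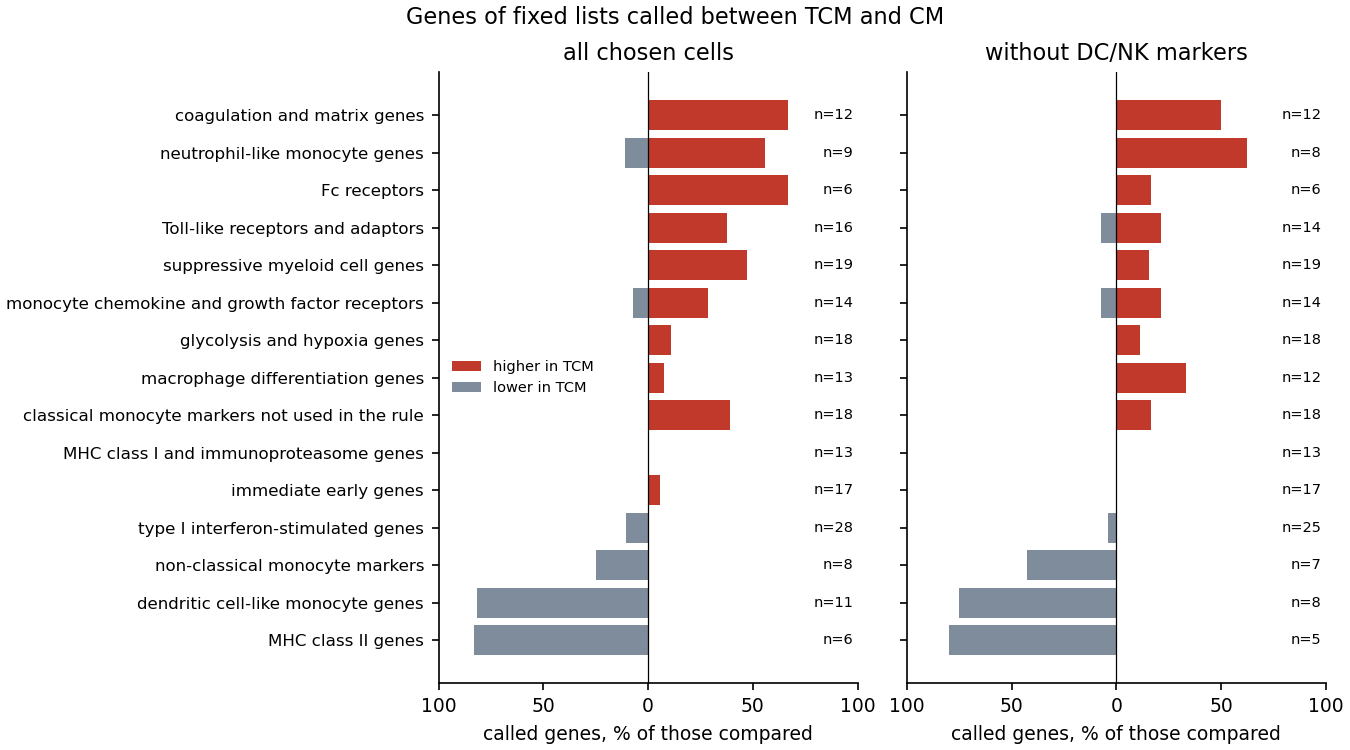
Bars give the percent of compared genes of each list called higher (red, to the right) or lower (grey, to the left) in TCM, for all chosen cells (left panel) and filtered monocytes (right panel), with the number of genes compared beside each bar. The coagulation and matrix list has 8 of 12 and 6 of 12 genes to the right, and the class II list 5 of 6 and 4 of 5 to the left.

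Many genes called lower over all members belonged to the cells set aside. Cd7, Klk1, Siglech, Cd209d, Cox6a2, Ccr9 and Spib, genes known from plasmacytoid dendritic cells or lymphocytes, had log2 ratios from -4.33 to -2.68 over all members. In filtered monocytes Cd7 had 3 UMIs in CM, Siglech 1 and Cd209d 0, too few to compare. Ccl5 and Gzma, genes of natural killer and T cells, went from 150 to 32.6 and from 89.7 to 15.0 UMIs per 100000 over all members, and had only 4 and 2 UMIs in filtered CM monocytes. Klk1b27, Gm21762, Tnni2, Net1, Iglc3 and Sept1 were called lower in the same way, from 50 UMIs or fewer in CM except for the 64 of Iglc3, an immunoglobulin light chain gene. Irf8, the transcription factor of monocyte and dendritic cell fate, was at 87.9 and 18.0 over all members, a log2 ratio of -2.29. In filtered monocytes it was at 22.98 and 15.2 (-0.60, -1.11 to -0.07) and was not called.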

How the data were processed

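The authors prepared 10x Genomics 5′ libraries and mapped them with Cell Ranger to mm10 (GRCm38.p6). The matrix headers name version 4. The deposited values are raw UMI counts, 1 matrix per library, of 737280 barcodes and 32286 features, not normalized. The submitters' processing notes also name Seurat. The genome is that of another strain than BALB/c.

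Cells had at least 500 UMIs, 200 genes and at most 10% mitochondrial UMIs. No doublet caller was run, and members over 3 times the median depth were left out as an alternative. Counts were summed over the chosen cells of a library and given per 100000 UMIs. Intervals at the 95% level were exact: Clopper-Pearson for shares and conditional binomial for ratios. UMIs were treated as independent molecules. A sum of 0 was set to 3 counts over the library's monocytes. Genes with at least 20 UMIs were compared and called at 2-fold or more with the interval beyond 0. No count model was run, since each group was 1 library.

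Named genes were the called ones among 41 gene lists, and the 12 in each direction whose interval bound lay farthest from 0, with UMIs in 10 cells or more and 3 times the level in lymphocytes, plus 4 in each direction below that level. Members and lists were chosen with earlier results of these data known. Free RNA came from droplets of at most 50 UMIs. Coordinates were from GENCODE vM21, in which 32158 features were found, and promoters from RefSeq. The steps were tested on simulated data. Python 3.11.15, numpy 2.4.6, scipy 1.17.1, pandas 2.3.3 and matplotlib 3.10.9 were used. Alternatives changed the marker minimum, filters, depth, scaling, free RNA, the cells kept and the gene minimum. Some genes called in these comparisons are not reported here.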

Additional observations from a re-analysis of the deposited data

Results flagged for a closer look

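A signal appeared outside the cells. In droplets of at most 50 UMIs, which hold free RNA and no cell, S100a8 stood at 264 UMIs per 100000 and S100a9 at 437 in the TCM library, against 51.9 and 96.0 in CM. In filtered monocytes the same genes were at 42.7 and 29.4 in TCM. Neutrophils, the class with the highest level of both, were 2.89% of cells in CM and 18.6% in TCM.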

How the results depend on the processing

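No paired analysis was possible because each group held 1 library, and the shared number 1 only names the sample. The alternatives that leave out cells with dendritic or natural killer cell markers, that leave out the 4% of cells richest in a gene, or that take free RNA from droplets of 51 to 200 UMIs were chosen after seeing the data. The ratio of the shares of classical monocytes, 2.22, stayed above 1 under all 12 alternatives. It was 4.04 with the rule applied to thinned cells, 3.18 in filtered monocytes, 3.17 when members under 2000 UMIs were left out as well, and 1.56 of cells with Ptprc. The 288 genes higher in TCM became 171 in filtered monocytes of at least 2000 UMIs, 126 with members thinned to 1000 UMIs, 173 with at least 50 UMIs per gene, and 568 with the 3 richest members per gene left out, a larger part of the CM than of the TCM members. The 339 genes lower in TCM became 185 with the rule applied to thinned cells, 122 in filtered monocytes, 123 without members under 2000 UMIs, 55 with thinned members, 195 without the 3 richest members, 125 with at least 50 UMIs and 630 with no minimum. In filtered monocytes the 210 higher genes became 131 with every excluded sum at 0, 79 with thinned members, 439 without the 3 richest and 117 with at least 50 UMIs, and the 122 lower genes became 71, 16, 36 and 40 in the same order, and 212 with no minimum. Thinning and a higher minimum leave fewer counts per gene. Named genes kept their direction in all but 29 of the values recomputed under these settings. A further 381 values over all members and 138 in filtered monocytes moved in size, beside 2258 and 1954 counted as the same. Reversed log2 ratios were Ager at -1.89, and -2.24 in filtered monocytes, and Ccl2 at -0.27 with every excluded sum at 0, Hdc at -0.13 with a minimum of 2 marker UMIs, and Abcg1 at 0.23 with a minimum of 5, 1.27 and Igkc at 0.90 in the thinned rule, and Abcg1 at 0.42 without the deepest members. In filtered monocytes Ccl5 was at 0.57, Tnni2 at 0.41, Cd209a at 0.052, Abcg1 at 1.41 and Stmn1 at 0.57, and without members under 2000 UMIs these were 0.84, 0.42, 0.059, 1.06 and 1.06, with Gzma at 0.57. As a mean over cells Ager was at -0.97, and -1.43 in filtered monocytes, Vegfa at -0.029 and Abcg1 at 0.78. With thinned members Nfic was at 0.55, Clec10a at 0.26 and Camkk2, in filtered monocytes, at 0.72. Stmn1 was at 0.54 without the 3 richest members, and Ager at -0.34 without the richest 4%, in both sets. The cause of these reversals was not tested. Depth limits the genes with under 20 UMIs, which were not compared.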

Other observations

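Droplets with at least 200 but under 500 UMIs, below the cell minimum, met the marker rule in 2 of 3767 cases in CM and 2 of 5919 in TCM. The CD90.1 sequence, a label of injected cancer cells that was added to the reference, had 0 UMIs in the classical monocytes of both libraries. Hbb-bs, a hemoglobin gene, had 24 UMIs in 2 filtered CM monocytes and 1 UMI in TCM. The glucocorticoid-induced gene Fkbp5 had 1 and 22 UMIs in filtered monocytes. Ly6a, which encodes the surface protein Sca-1, was at 3.91 and 9.27 UMIs per 100000 there, with 103 in free RNA of TCM.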
